A study of Mus musculus with 6 samples.

Results

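The ENPP family (ectonucleotide pyrophosphatases/phosphodiesterases) was examined in whole mouse ovaries, in 3 Bnc1+/+ and 3 Bnc1tr/tr samples. Members were found by symbol: 6 genes, Enpp1 to Enpp6, of 44788 genes listed in the deposited count table, of which 31717 had at least 1 count. The family was chosen by its symbols after the difference between the genotypes was known, so the levels of its members in the 2 genotypes are given as a description, without a test. All 6 members passed the filter on low counts, as did 19423 genes in all. Both groups were on a C57BL/6 J background, taken at 8 weeks of age, and were compared as littermates. Bnc1tr/tr mice are homozygous for a targeted truncation of Basonuclin 1 (Bnc1), a small targeted deletion in exon 4 that shifts the reading frame and is not limited to a tissue, and Bnc1+/+ mice carry the intact gene. Totals ran from 25247770 to 34406296 counts per ovary, with 3 libraries per genotype. Bnc1 had 375, 444 and 381 reads in Bnc1+/+ replicates 1, 4 and 7 and 527, 355 and 326 reads in Bnc1tr/tr replicates 1, 2 and 3; since a deletion of few bases need not lower reads over the gene, these do not check the labels. Levels are given as CPM (counts scaled to library size after TMM normalization) and differences as the log2 fold change of Bnc1tr/tr over Bnc1+/+ with its standard error.

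ENPP enzymes sit on the cell surface or are secreted, and cut phosphodiester and pyrophosphate bonds of substrates outside the cell with zinc ions in the active site. They fall by substrate into enzymes that act on nucleotides and enzymes that act on phospholipids. Among the nucleotide enzymes, Enpp1 splits ATP into AMP and pyrophosphate, an inhibitor of mineralisation, and also breaks down the immune messenger cGAMP. Enpp3 likewise hydrolyses extracellular nucleotides and is known from basophils and mast cells. Enpp4 cleaves dinucleotide polyphosphates, and Enpp5 is the least characterised member. Of the lipid enzymes, Enpp2 is autotaxin, the secreted lysophospholipase D that makes lysophosphatidic acid (LPA). Enpp6 is a choline-specific phosphodiesterase that releases phosphocholine from lysophosphatidylcholine and glycerophosphocholine. The remaining gene, Enpp7, encodes the alkaline sphingomyelinase of the gut. Ovarian LPA is formed in follicular fluid, where autotaxin is present.

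In GRCm38 with the GENCODE M21 annotation, Enpp6 (ENSMUSG00000038173.15) spans 46986887 to 47096762 of chromosome 8 (plus strand). Pairs of members are neighbours elsewhere. Enpp1 (24637914 to 24712159) and Enpp3 (24772406 to 24842823) lie on the minus strand of chromosome 10, separated by 61.7 kb between their RefSeq gene models. Enpp5 (44078813 to 44086567, plus strand) and Enpp4 (44096308 to 44105809, minus strand) face each other with their 3′ ends on chromosome 17, 9.74 kb apart. Enpp2 spans 54838901 to 54952892 of chromosome 15 (minus strand). No other gene of the table overlapped a member. Promoter windows from RefSeq (GRCm38.p6), 250 bases before to 50 bases after the gene start, were matched by symbol for Enpp1, Enpp3, Enpp4, Enpp6 and Enpp7. Those of Enpp6 and Enpp4 are shown because these were the members whose genotypes did not overlap. Their base composition also stood at opposite ends of the matched windows, and no window was matched for Enpp2 or Enpp5. Capitals mark the CG dinucleotides. The windows are chr8:46986637-46986936 on the plus strand for Enpp6 and chr17:44105760-44106059 on the minus strand for Enpp4.
Enpp6: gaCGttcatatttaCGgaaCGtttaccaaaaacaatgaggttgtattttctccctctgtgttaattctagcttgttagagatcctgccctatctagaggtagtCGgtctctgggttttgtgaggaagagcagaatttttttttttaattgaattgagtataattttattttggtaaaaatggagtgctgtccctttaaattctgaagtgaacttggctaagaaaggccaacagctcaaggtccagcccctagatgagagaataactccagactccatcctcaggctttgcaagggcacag
Enpp4: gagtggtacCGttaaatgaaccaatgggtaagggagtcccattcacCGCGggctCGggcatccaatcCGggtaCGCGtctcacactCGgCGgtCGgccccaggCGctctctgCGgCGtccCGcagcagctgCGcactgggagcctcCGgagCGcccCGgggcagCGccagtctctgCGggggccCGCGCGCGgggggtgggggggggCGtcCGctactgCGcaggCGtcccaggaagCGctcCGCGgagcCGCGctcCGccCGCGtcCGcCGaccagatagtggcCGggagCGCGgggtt
The Enpp6 window held 4 CG dinucleotides and 40.3% G and C, and the Enpp4 window held 41 and 73.7%. Across all 32851 windows the medians were 7 CG dinucleotides and 52.7%. Enpp3 (5 and 40.7%) was close to Enpp6, and Enpp1 held 22 and 61.7%. Exact matches to short motifs were sought on both strands. The core of the TATA box, searched as TATAAA, occurs in 13.6% of all windows. For the GC box the letters were GGGCGG, present in 35.7% of them. The core of the cAMP response element was searched as TGACGT and occurs in 7.51%. For the site of the NR5A nuclear receptors the letters were AAGGTCA, present in 4.72%. None of the 4 motifs was found in the Enpp6 window. The GC box was found in the windows of Enpp1, Enpp4 and Enpp7, the cAMP element in that of Enpp1, and the TATA box in that of Enpp3 at -209 from the start, on the opposite strand.

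Enpp6 differed most between the genotypes of all members. It was at 26.1, 30.8 and 29.4 CPM in Bnc1+/+ replicates 1, 4 and 7, and at 6.22, 4.50 and 5.39 CPM in Bnc1tr/tr replicates 1, 2 and 3. The lowest Bnc1+/+ ovary thus lay more than 4 times above the highest Bnc1tr/tr ovary. These levels rested on 702, 1019 and 851 reads and on 175, 117 and 153 reads. The means were 28.7 ± 2.40 CPM and 5.37 ± 0.861 CPM (SD, n = 3 each), a log2 fold change of -2.42 (standard error 0.14), or 5.34-fold lower in Bnc1tr/tr ovaries. Of the 16753 tested genes with a mean of at least 1 CPM, 66 had a log2 fold change at or below that of Enpp6, itself included. Over 12 alternatives in scaling, filter, tool and ovaries used, it stayed between -2.54 and -2.31.

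Enpp6 was also the only member to pass the threshold of the genotype comparison across all genes (adjusted p under 0.05 from edgeR's quasi-likelihood test), 1 of 6, and it was lower. In the background 7.06% of the 19423 genes passed, 4.19% lower and 2.88% higher in Bnc1tr/tr ovaries. Since that contrast was known when the family was chosen, nothing is read from this count. The genotypes did not overlap for 2 members, Enpp6 and Enpp4, against 30.8% of all tested genes. Of the 6 members, 4 had a positive and 2 a negative log2 fold change, with a median of 0.12, where the median over all tested genes was 0.018.

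**Figure D1:**
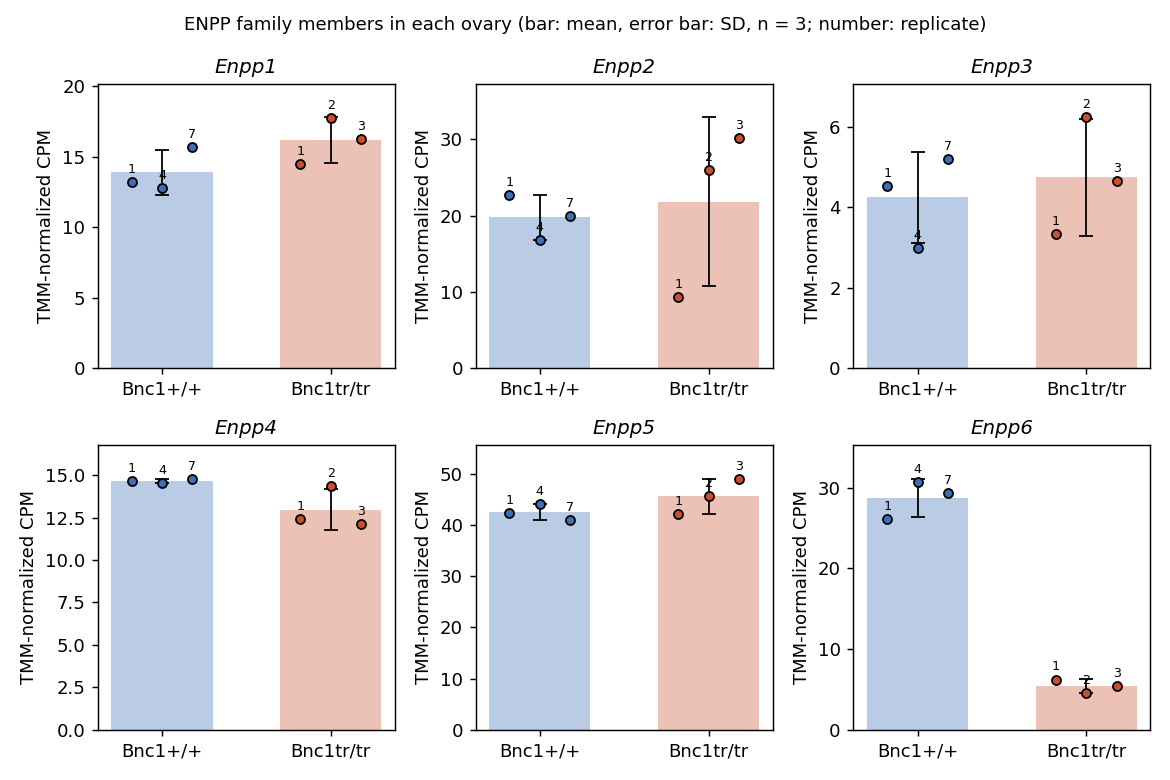
Level of each ENPP member in each ovary, in TMM-normalized CPM on linear axes from 0; bars are means, error bars the SD over 3 ovaries, and numbers beside the points are replicates. Enpp6 falls from 26.1 or more in every Bnc1+/+ ovary to 6.22 or less in every Bnc1tr/tr ovary, while Enpp2 spreads widely among Bnc1tr/tr ovaries.

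Enpp2 varied more among Bnc1tr/tr ovaries than between the genotypes. Autotaxin transcripts were at 22.7, 16.8 and 19.9 CPM in Bnc1+/+ replicates 1, 4 and 7 and at 9.32, 26.0 and 30.2 CPM in Bnc1tr/tr replicates 1, 2 and 3. Bnc1tr/tr replicate 1 lay below every other ovary, and the remaining Bnc1tr/tr ovaries lay above every Bnc1+/+ ovary. The means of 19.8 ± 2.96 and 21.8 ± 11.1 CPM (SD, n = 3 each) gave a log2 fold change of 0.14 (standard error 0.37). It became 0.51 without Bnc1tr/tr replicate 1, -0.17 without Bnc1tr/tr replicate 3, -0.0022 without Bnc1tr/tr replicate 2, and was -0.014 with limma-voom on all 6 ovaries, so its direction depended on single ovaries and on the tool. The coefficient of variation reached 50.6% among Bnc1tr/tr ovaries, the widest of the family, against 14.9% for Bnc1+/+.

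Marker sums of some lists, but not of all, followed Enpp2 in part across ovaries. The summed level of 9 stroma markers was 2498 CPM in Bnc1tr/tr replicate 1, 2514, 2902 and 3007 CPM in Bnc1+/+ replicates 4, 7 and 1, and 3761 and 3388 CPM in Bnc1tr/tr replicates 2 and 3. The sum of 11 oviduct epithelium markers was 21.7 CPM in Bnc1tr/tr replicate 1, 28.0, 31.1 and 144 CPM in Bnc1+/+ replicates 4, 7 and 1, and 32.8 and 535 CPM in Bnc1tr/tr replicates 2 and 3. In both lists the ovary lowest for Enpp2 was also the lowest, as it was in the sums of the corpus luteum (3406.5 CPM), endothelium (638 CPM), smooth muscle and pericyte (1959 CPM), macrophage (242 CPM) and mast cell and basophil (20.8 CPM) markers. The sum of 9 adipocyte markers ran the other way in that ovary, at 301 CPM in Bnc1tr/tr replicate 1 against 14.2 to 226 CPM in the others. That ovary was also the highest in the sums of the oocyte (1052 CPM), granulosa cell (6549 CPM), theca cell (691 CPM, against 289 to 379 CPM in the others) and red blood cell (226 CPM) markers. Their part in the spread of Enpp2 was not tested.

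The nucleotide enzymes Enpp1 and Enpp3 lay close to even between the genotypes. Enpp1 was at 13.2, 12.7 and 15.7 CPM in Bnc1+/+ replicates 1, 4 and 7 and at 14.5, 17.7 and 16.2 CPM in Bnc1tr/tr replicates 1, 2 and 3. Those values overlapped, with a log2 fold change of 0.22 (standard error 0.13) that ranged from 0.15 to 0.32 over 12 alternatives. Enpp3, on few reads (94 to 162 per ovary), was at 4.54, 2.99 and 5.21 CPM in the Bnc1+/+ and at 3.34, 6.24 and 4.65 CPM in the Bnc1tr/tr ovaries in the same order. The difference was 0.16 on the log2 scale (standard error 0.29), and turned to -0.046 without Bnc1+/+ replicate 4 and to -0.086 without Bnc1tr/tr replicate 2. Each genotype had 1 ovary near 3 CPM for Enpp3, so its spread was shared by the genotypes.

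Enpp4 and Enpp5, neighbours on chromosome 17, were the steadiest members. Enpp4 was at 14.7, 14.5 and 14.8 CPM in Bnc1+/+ replicates 1, 4 and 7 and at 12.4, 14.4 and 12.1 CPM in Bnc1tr/tr replicates 1, 2 and 3. The gap between the lowest Bnc1+/+ and the highest Bnc1tr/tr ovary was small beside the spread of the Bnc1tr/tr ovaries (SD 1.21 CPM), and the log2 fold change was -0.18 (standard error 0.11). Enpp5, the member with the most reads (1142 to 1462 per ovary), was at 42.5, 44.2 and 41.1 CPM in the Bnc1+/+ and at 42.2, 45.8 and 49.1 CPM in the Bnc1tr/tr ovaries. Its values overlapped, with a log2 fold change of 0.10 (standard error 0.087) that was 0.047 without Bnc1tr/tr replicate 3 and 0.16 without Bnc1tr/tr replicate 1. With library size as the only scaling, which moved the median of all tested genes from 0.018 to 0.12, the log2 fold changes were -0.078 for Enpp4 and 0.20 for Enpp5. Enpp7, the remaining ENPP row of the table, had no read in any of the 6 ovaries. Taken as an approximate upper limit for a count of 0, 3 reads would be 0.0906 to 0.116 CPM.

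**Figure D2:**
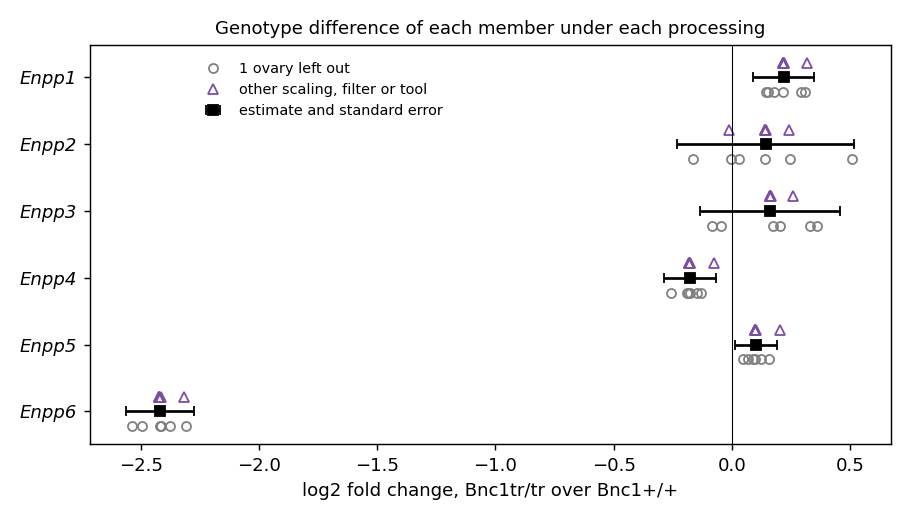
Log2 fold change of Bnc1tr/tr over Bnc1+/+ for each member, with squares for the estimate and its standard error, circles for fits without 1 ovary and triangles for another scaling, filter or tool. Enpp6 stays between -2.54 and -2.31, the sign of Enpp3 changes with single ovaries, and that of Enpp2 with single ovaries and with limma-voom.

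Levels were compared between members per kb of exon. In Bnc1+/+ ovaries the order was Enpp5 (8.76 ± 0.316 CPM per kb), Enpp6 (4.48 ± 0.375), Enpp2 (3.43 ± 0.512), Enpp4 (3.22 ± 0.0291), Enpp1 (1.35 ± 0.155) and Enpp3 (0.705 ± 0.189; SD, n = 3 each). Only Enpp2 and Enpp4 overlapped among neighbours of this order: Enpp2 ran from 2.91 to 3.93 CPM per kb and Enpp4 from 3.19 to 3.24. In Bnc1tr/tr ovaries the order was Enpp5 (9.40 ± 0.709 CPM per kb), Enpp2 (3.78 ± 1.91), Enpp4 (2.85 ± 0.265), Enpp1 (1.58 ± 0.160), Enpp6 (0.838 ± 0.134) and Enpp3 (0.788 ± 0.241; SD, n = 3 each). There Enpp2 overlapped Enpp4, and Enpp6 overlapped Enpp3. Enpp6 accordingly stood second in Bnc1+/+ ovaries and at the level of the lowest expressed member in Bnc1tr/tr ovaries. The share of Enpp6 in the summed per-kb level of the family fell from 20.4 ± 1.81% with Bnc1+/+ to 4.49 ± 1.41% with Bnc1tr/tr (SD, n = 3 each). Without Enpp6, the summed level of the family was 95.2 ± 3.44 CPM in Bnc1+/+ and 101 ± 17.0 CPM in Bnc1tr/tr ovaries (SD, n = 3 each), and the genotypes overlapped.

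**Figure D3:**
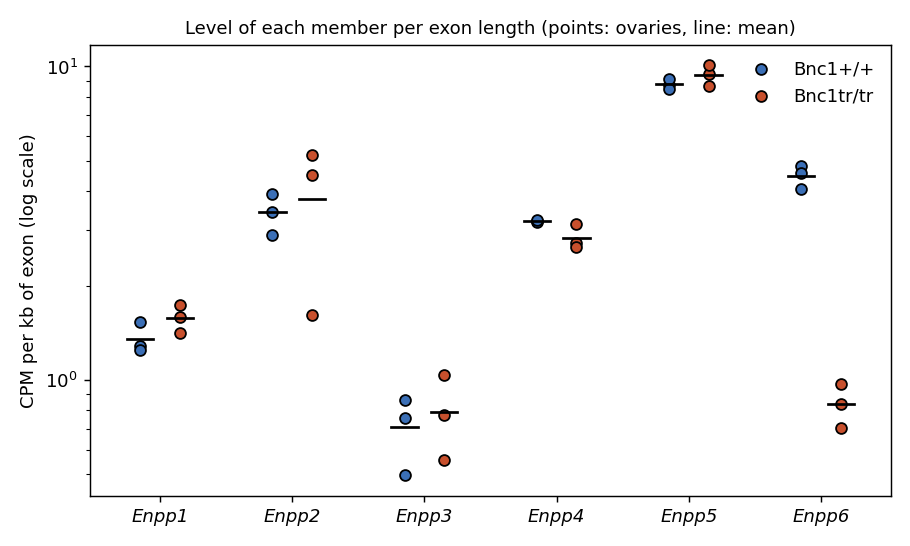
Level of each member in CPM per kb of exon on a log axis, with points for ovaries and lines for the means of 3. Enpp6 is second in Bnc1+/+ ovaries, at 4.48 CPM per kb, and beside Enpp3 in Bnc1tr/tr ovaries, at 0.838 CPM per kb.

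Markers of other cell types moved with Enpp6 between the genotypes. Of 9 corpus luteum markers, all tested, 7 passed the threshold, all 7 lower in Bnc1tr/tr ovaries, where 4.19% of all tested genes were called lower, with a median log2 fold change of -1.86. Lhcgr, the luteinising hormone receptor, fell by 3.01 on the log2 scale (Benjamini-Hochberg adjusted p = 0.00024, edgeR) and Scarb1, the HDL receptor, by 1.86 (Benjamini-Hochberg adjusted p = 0.00041, edgeR). Akr1c18 and Parm1 did not pass and overlapped between the genotypes (log2 fold changes -0.78 and -0.37, standard errors 0.91 and 0.36). The luteal sum was 15368, 19081 and 18956 CPM in Bnc1+/+ replicates 1, 4 and 7 and 3406.5, 6932 and 5598 CPM in Bnc1tr/tr replicates 1, 2 and 3, and no luteal marker was at 0. Cyp11a1 was the largest part of this sum, with means of 10158 CPM in Bnc1+/+ and 3547 CPM in Bnc1tr/tr ovaries. Among Bnc1tr/tr ovaries, replicate 1 had the highest Enpp6 and the lowest luteal sum. Of 10 endothelium markers 6 passed, all lower, with sums of 939 to 1260 CPM in Bnc1+/+ and 638 to 719 CPM in Bnc1tr/tr ovaries. Of 8 glia markers, a class that includes oligodendrocytes, in which Enpp6 is known, 5 were tested and 1 passed: Mbp, a myelin gene, was lower (log2 fold change -1.55, Benjamini-Hochberg adjusted p = 0.0086, edgeR). The glia sum was 88.5 to 136 CPM in Bnc1+/+ and 36.3 to 50.9 CPM in Bnc1tr/tr ovaries, and the myelin gene Mog was at 0 in every ovary. The part of these cell types in the level of Enpp6 was not tested. In whole ovaries, fewer cells of a type and less RNA per cell cannot be told apart.

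Ovarian identity was checked on the remaining lists, none of which had a marker at 0 in all 6 ovaries. Against 2.88% of all tested genes called higher and 4.19% lower, 3 of 12 oocyte markers passed, all higher, of 12 granulosa markers 2, both higher, and of 6 theca markers 1, higher. Of 9 stroma markers 1 passed, higher, and of 9 smooth muscle and pericyte markers 3, all lower. No marker passed among 10 of macrophages, 8 of mast cells and basophils (5 tested) or 6 of red blood cells (5 tested), and the red cell sum overlapped between the genotypes (61.4 to 226 CPM). The mast cell and basophil sum, relevant to Enpp3, was 32.9 to 40.4 CPM in Bnc1+/+ and 20.8 to 40.9 CPM in Bnc1tr/tr ovaries, and was mostly Hdc, the histamine-forming enzyme (31.6 to 35.8 and 16.8 to 33.9 CPM, log2 fold change -0.32). The mast cell proteases Cpa3, Mcpt4 and Tpsb2 were low, at 0 to 1.38 CPM in Bnc1+/+ and 0.654 to 2.96 CPM in Bnc1tr/tr ovaries, with log2 fold changes of 1.22, 1.46 and 1.082 and no overlap between the genotypes, and Cma1 had 0.56. The list median was 1.082. Of 9 adipocyte, 11 oviduct and 10 surface epithelium markers 1 each passed, higher.

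Genes whose pattern over the 6 ovaries was most like that of Enpp6 were sought among 13075 genes with a mean of at least 5 CPM. Likeness was the root mean square difference between log2 CPM profiles, each centred on its own mean. Among the 3 closest were Ephb2, an ephrin receptor (0.15), and Spns2, a sphingosine-1-phosphate transporter (0.19). Ephb2 was at 79.8, 89.4 and 99.98 CPM in Bnc1+/+ replicates 1, 4 and 7 and at 15.3, 13.5 and 14.6 CPM in Bnc1tr/tr replicates 1, 2 and 3. Spns2 was at 116, 165 and 172 CPM and at 40.5, 21.6 and 25.1 CPM in the same ovaries. Like Enpp6, neither overlapped between the genotypes, which the choice by likeness fixes. For Enpp2 the closest were Rec8, a cohesin subunit of meiosis (0.057), Rnf128, a ubiquitin ligase (0.12), and Adamts1, a matrix protease (0.13). Rec8 was at 14.4, 10.8 and 11.97 CPM in Bnc1+/+ and at 5.30, 16.3 and 19.1 CPM in Bnc1tr/tr ovaries, again with replicate 1 lowest.

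**Figure D4:**
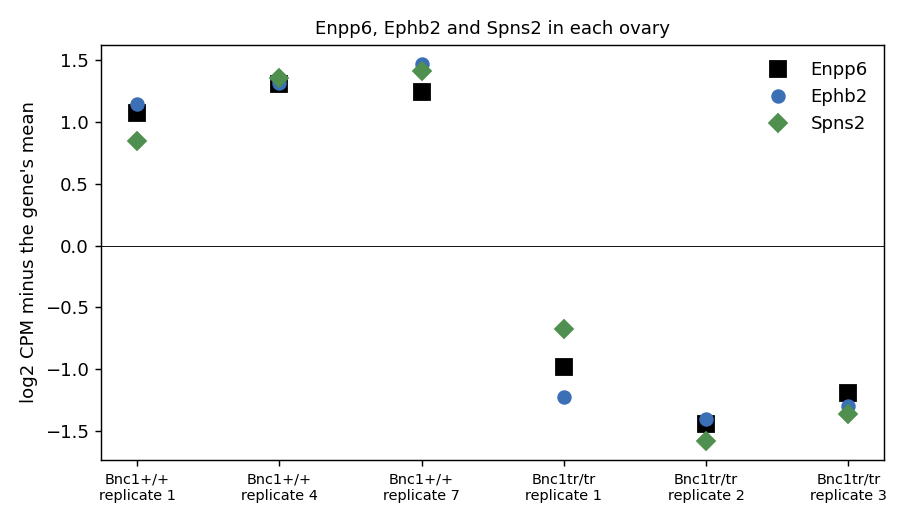
Profile of Enpp6 (squares), Ephb2 (circles) and Spns2 (diamonds) over the 6 ovaries, as log2 CPM minus each gene's own mean. All 3 genes are above 0 in every Bnc1+/+ ovary and below 0 in every Bnc1tr/tr ovary.

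Genes beside the members on the chromosome were compared next. Of 24 genes of the table within 250 kb of an ENPP gene, members left out, 18 were tested and 1 passed, where 7.06% of all tested genes did. Irf2 and Stox2, the neighbours of Enpp6 with a mean of at least 1 CPM, had log2 fold changes of 0.26 (standard error 0.17) and 0.17 (standard error 0.14), opposite in sign to Enpp6 (Benjamini-Hochberg adjusted p = 0.378 and 0.515, edgeR). With 1 ovary left out, Irf2 ran from 0.054 to 0.40 and Stox2 from 0.057 to 0.27. Gm16675, a tested neighbour of Enpp6 with a lower mean (0.62 CPM), had -0.81 (standard error 0.30) and did not pass. Irf2, an interferon regulatory factor, was at 20.8 ± 0.877 and 24.9 ± 6.02 CPM in Bnc1+/+ and Bnc1tr/tr ovaries, and Stox2 at 18.5 ± 2.65 and 20.7 ± 2.68 CPM (SD, n = 3 each). Near Enpp4 and Enpp5, Clic5 had a log2 fold change of -0.48 (standard error 0.15) and Rcan2 of -0.019 (standard error 0.14), short of the threshold with Benjamini-Hochberg adjusted p = 0.0932 and 0.949 (edgeR). Clic5 passed with DESeq2. Near Enpp1 and Enpp3, Med23 had a log2 fold change of -0.078, and near Enpp2, Taf2, Dscc1 and Deptor had -0.24, 0.17 and 0.12, all short of the threshold. The gene that passed was Cbx2, a Polycomb subunit beside the silent Enpp7, which rose by 0.58 on the log2 scale (Benjamini-Hochberg adjusted p = 0.0248, edgeR). It was short of the threshold without any 1 Bnc1+/+ ovary or without Bnc1tr/tr replicate 3. Of the other neighbours of Enpp7, Rbfox3, Cbx8, Tbc1d16 and Ccdc40 had log2 fold changes of -0.44, 0.30, 0.23 and 1.20 (standard errors 0.45, 0.11, 0.10 and 0.95), and did not pass. Ccdc40, also a member of the oviduct list, was at 19.2 CPM in Bnc1tr/tr replicate 3 against 1.58 to 6.25 CPM in the others, and its value turned to -0.83 without that ovary. Rbfox3 ran from -1.10 without Bnc1tr/tr replicate 1 to -0.11 without Bnc1tr/tr replicate 2.

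Among receptors of LPA, the product of autotaxin, Lpar2 was lower in Bnc1tr/tr ovaries. Of 6 receptor genes 5 were tested and 1 passed, against 7.06% of all tested genes, with a median difference of 0.061 on the log2 scale. Lpar2 was at 30.2, 32.1 and 26.3 CPM in Bnc1+/+ replicates 1, 4 and 7 and at 10.17, 13.1 and 13.4 CPM in Bnc1tr/tr replicates 1, 2 and 3. It fell by 1.27 on the log2 scale (standard error 0.14, Benjamini-Hochberg adjusted p = 0.0035, edgeR) with no overlap between the genotypes, and passed under all 12 alternatives. Lpar6 (14.3 ± 0.675 and 14.9 ± 1.12 CPM), Lpar1 (6.41 ± 0.712 and 7.40 ± 1.71 CPM), Lpar4 (1.62 ± 0.917 and 1.78 ± 0.315 CPM) and Lpar5 (0.689 ± 0.389 and 0.555 ± 0.289 CPM; SD, n = 3 in Bnc1+/+ and Bnc1tr/tr) did not pass. Their log2 fold changes were 0.061, 0.21, 0.14 and -0.32 (standard errors 0.11, 0.21, 0.41 and 0.51). With 1 ovary left out, Lpar6 ran from 0.00041 to 0.10 and Lpar1 from 0.094 to 0.39. Without 1 ovary Lpar4 ran from -0.17 (Bnc1+/+ replicate 4) to 0.68 (Bnc1+/+ replicate 7) and Lpar5 from -0.82 (Bnc1tr/tr replicate 2) to 0.24 (Bnc1+/+ replicate 7), so both changed sign. Lpar3, under the filter, had 11, 4 and 0 reads in Bnc1+/+ replicates 1, 4 and 7 and 0, 2 and 45 reads in Bnc1tr/tr replicates 1, 2 and 3, the last being the ovary with the highest oviduct sum.

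Other enzymes that supply or remove LPA followed. Of 14 listed, 12 were tested, 10 of them with a negative value (9212 of all 19423), and 1 passed, against 7.06% of all tested genes, with a median log2 fold change of -0.21. Ppap2a, a lipid phosphate phosphatase that removes the phosphate of LPA, fell from 37.7 ± 4.41 to 24.2 ± 0.0689 CPM (SD, n = 3; log2 fold change -0.64, Benjamini-Hochberg adjusted p = 0.0138, edgeR). It was short of the threshold without Bnc1+/+ replicate 4 or 7 or Bnc1tr/tr replicate 3. The related Ppap2b was at 216 ± 20.7 and 155 ± 36.3 CPM and Ppap2c at 28.2 ± 6.13 and 25.6 ± 5.05 CPM (SD, n = 3), and neither passed.

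Around the nucleotide enzymes, ecto-nucleotidases changed in both directions. Of 16 listed genes 14 were tested and 5 passed, 2 higher and 3 lower (2.88% and 4.19% of all tested genes), with a median log2 fold change of 0.17. Entpd1, the main ectoenzyme that removes phosphates from ATP and ADP, was at 78.2, 81.2 and 78.4 CPM in Bnc1+/+ and at 55.0, 54.9 and 52.5 CPM in Bnc1tr/tr ovaries. It fell by 0.55 on the log2 scale (standard error 0.072, Benjamini-Hochberg adjusted p = 0.0060, edgeR), with no overlap between the genotypes and under all 12 alternatives. Nt5e, which turns AMP, the product of Enpp1, into adenosine, was at 6.51, 6.59 and 6.76 CPM in Bnc1+/+ and at 1.96, 3.20 and 2.86 CPM in Bnc1tr/tr ovaries. It fell by 1.31 on the log2 scale (standard error 0.22, Benjamini-Hochberg adjusted p = 0.0141, edgeR), and it was short of the threshold without Bnc1+/+ replicate 4 or 7. Smpdl3b, a sphingomyelinase-like phosphodiesterase, fell from 207 ± 26.3 to 111 ± 29.1 CPM (SD, n = 3; Benjamini-Hochberg adjusted p = 0.0380, edgeR). Entpd2, an ATPase, rose from 8.30 ± 1.54 to 14.7 ± 1.46 CPM (SD, n = 3; Benjamini-Hochberg adjusted p = 0.0271, edgeR), and Ada, adenosine deaminase, from 24.9 ± 1.99 to 37.5 ± 6.75 CPM (SD, n = 3; Benjamini-Hochberg adjusted p = 0.0461, edgeR). Fewer of these genes passed when 1 ovary was left out, as did fewer of all tested genes (320 without Bnc1+/+ replicate 4 and 518 without Bnc1+/+ replicate 7, of 1372): the count of 5 became 1, Entpd1, without Bnc1+/+ replicate 4 and without Bnc1+/+ replicate 7, and 3 without Bnc1+/+ replicate 1, Bnc1tr/tr replicate 2 or Bnc1tr/tr replicate 3, and 4, with Ada lost, without Bnc1tr/tr replicate 1. Ada was also short of the threshold with limma-voom. The estimates moved less than the calls: Nt5e was at -1.32 and -1.30 without Bnc1+/+ replicates 4 and 7, Smpdl3b at -0.90 and -0.995 (with all ovaries -0.90), and Entpd2 at 0.71 and 0.77 (with all ovaries 0.82).

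Receptors of nucleotides and adenosine were compared as well. Of 18 listed 15 were tested, 12 had a negative log2 fold change (9212 of all 19423) with a list median of -0.45, and 1 passed, near the 7.06% of all tested genes. The list median was -0.25 without Bnc1tr/tr replicate 1 and -0.65 without Bnc1tr/tr replicate 2. P2rx3, an ATP-gated channel, fell from 3.66 ± 1.36 to 1.11 ± 0.280 CPM (SD, n = 3; log2 fold change -1.72, Benjamini-Hochberg adjusted p = 0.0269, edgeR), and was short of the threshold without Bnc1+/+ replicate 4 or 7 or Bnc1tr/tr replicate 1 or 3. Adora1, an adenosine receptor, was at 87.5 ± 34.4 and 34.4 ± 14.1 CPM (SD, n = 3; Benjamini-Hochberg adjusted p = 0.0599, edgeR), short of the threshold.

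In the lists for pyrophosphate and mineralisation and for cGAMP and STING, which Enpp1 also bears on, 1 gene each passed, where 7.06% of all tested genes did. Of 11 genes of pyrophosphate and mineralisation 9 were tested, with a median log2 fold change of 0.095, and 1 passed. Spp1 (osteopontin) rose from 10.9 ± 3.11 to 34.5 ± 9.97 CPM (SD, n = 3; log2 fold change 1.67, Benjamini-Hochberg adjusted p = 0.0125, edgeR), and was short of the threshold without Bnc1+/+ replicate 4 or 7. Ank, which exports pyrophosphate, was at 49.9 ± 15.7 and 32.8 ± 5.09 CPM, and Alpl, which degrades it, at 25.6 ± 7.18 and 31.9 ± 9.07 CPM (SD, n = 3), and neither passed. Of 9 genes of the cGAMP and STING pathway 8 were tested, with a median of -0.015, and 1 passed. Tmem173, which encodes STING, the sensor of cGAMP, fell from 18.6 ± 0.626 to 12.4 ± 1.65 CPM (SD, n = 3; log2 fold change -0.59, Benjamini-Hochberg adjusted p = 0.0323, edgeR). It was short of the threshold without any 1 Bnc1+/+ ovary or Bnc1tr/tr replicate 1 or 3. The gene of the enzyme that makes cGAMP, Mb21d1, was at 3.50 ± 0.451 and 3.74 ± 0.748 CPM (SD, n = 3).

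Choline and lysophospholipid genes, which handle the substrates and products of Enpp6, had a lower sum in Bnc1tr/tr ovaries. A sum is weighted to abundant genes and need not hold for most of the list. The sum was 1215, 1234 and 1197 CPM in Bnc1+/+ replicates 1, 4 and 7. It was 1030, 1118 and 1102 CPM in Bnc1tr/tr replicates 1, 2 and 3. Of 26 listed 25 were tested, 16 negative (9212 of all 19423) and 9 positive, with a median log2 fold change of -0.059. Of these 1 passed, against 7.06% of all tested genes. Scaled by library size only, the list median was 0.040, where the median over all tested genes was 0.12. The direction of the list median thus depended on the scaling. Gdpd5, a glycerophosphodiesterase that, like Enpp6, acts on glycerophosphocholine, fell from 63.2 ± 11.7 to 34.3 ± 6.87 CPM (SD, n = 3; log2 fold change -0.88, Benjamini-Hochberg adjusted p = 0.0308, edgeR). It was short of the threshold without Bnc1+/+ replicate 1 or 4 or Bnc1tr/tr replicate 1 or 3. Gpcpd1, another glycerophosphocholine phosphodiesterase, was at 27.3 ± 0.627 and 20.4 ± 2.21 CPM (SD, n = 3; Benjamini-Hochberg adjusted p = 0.0526, edgeR). Chka, the choline kinase, was at 133 ± 3.87 and 117 ± 17.7 CPM (SD, n = 3) and did not pass. Lpcat3 was at 152 ± 15.9 and 98.7 ± 26.0 CPM (SD, n = 3), without overlap, and did not pass either (log2 fold change -0.62).

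**Figure D5:**
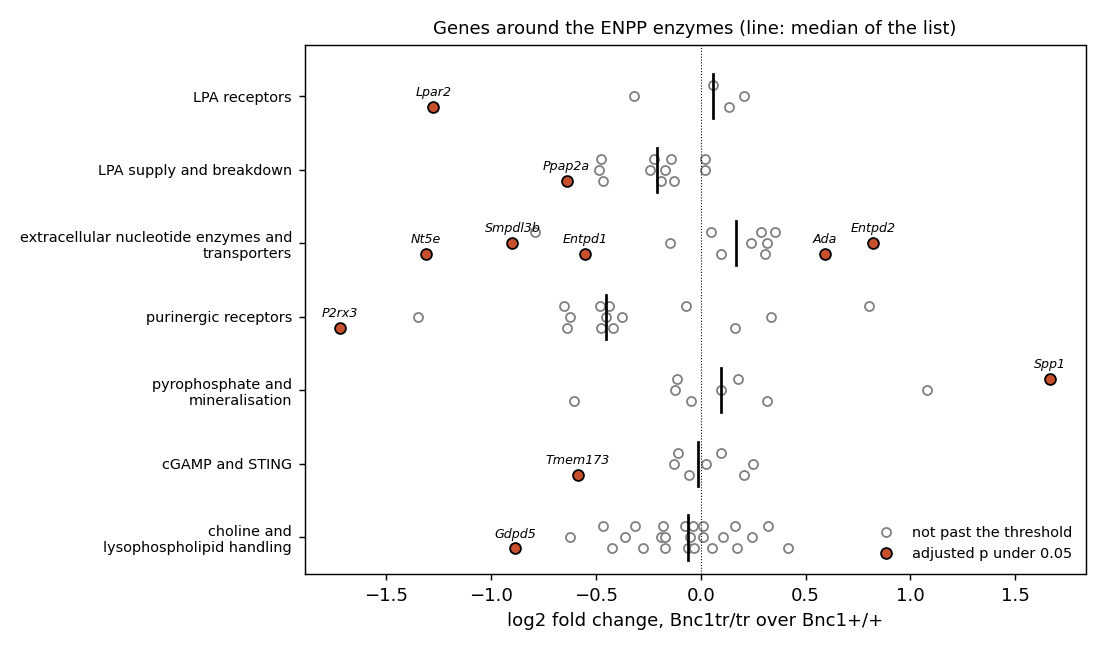
Log2 fold change of Bnc1tr/tr over Bnc1+/+ for tested genes of the 7 lists around the ENPP enzymes; filled, named points passed the threshold, and vertical lines are list medians. The medians run from -0.45 for purinergic receptors to 0.17 for extracellular nucleotide enzymes and transporters.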

How the data were processed

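RNA was extracted from whole ovaries with TRIzol, and single-end libraries were sequenced on the Ion Proton. The authors deposited raw counts, whole numbers of reads per gene symbol. The submitters' processing notes name mm10, beside a pig build whose role is not given. The aligner, counter and annotation are not given in the sources used here, nor is use of strand.

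Counts were filtered with filterByExpr (minimum count 10), TMM-normalized and fitted with edgeR 4.0.16 (glmQLFit and glmQLFTest, two-sided, R 4.3.3), with Benjamini-Hochberg adjustment over 19423 genes and a threshold of 0.05. The standard error is the log2 fold change divided by the root of the F statistic. Log2 CPM used a prior count of 2. Older symbols of the table were matched (Ppap2a, Ppap2b and Ppap2c are now Plpp1, Plpp3 and Plpp2, Tmem173 is Sting1 and Mb21d1 is Cgas). Exon lengths were the union of GENCODE M21 exons. Replicates of a genotype differed beyond counting error (chi-square per degree of freedom 15.6 to 58.5). The study describes the 3 samples of a genotype as biological replicates, and the labels name no animal. The p values thus set the genotype difference against the spread between these samples within a genotype. The pipeline was tested on simulated data.

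Named were the members, list genes that passed, LPA receptors, neighbours within 250 kb averaging 1 CPM or more, and the 3 genes closest in profile; a few list genes that did not pass were named after their values were seen. A few genes that this rule selects are not reported here. Members and lists were chosen with earlier results of these data known, and lists were written by hand. Closest genes are given for Enpp2 and Enpp6 in the results and for the other members at the end. Alternatives were DESeq2 1.42.0 or its size factors, limma-voom (limma 3.58.1), library size only, no filter, 10 counts required of all ovaries, omission of single ovaries, and an added minimum change of 1 on the log2 scale. Counts of 0 and their limits cover counting error only.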

Additional observations from a re-analysis of the deposited data

How the results depend on the processing

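Enpp6 was the 1 member past the threshold under all 12 alternatives. The number of genes past the threshold, 1372, was 2420 with DESeq2, 648 with an added minimum change of 1 on the log2 scale, and from 320 to 1282 without 1 ovary. With library size as the only scaling 35.6% of the calls were lower in Bnc1tr/tr, against 59.3%. List counts changed as follows when 1 ovary was left out: LPA supply and breakdown (main 1) 0 to 1, extracellular nucleotide enzymes and transporters (5) 1 to 4, purinergic receptors (1) 0 to 2, pyrophosphate and mineralisation (1) 0 to 2, cGAMP and STING (1) 0 to 1, and choline and lysophospholipid handling (1) 0 to 2. The purinergic count was 2 with no filter and 2 with DESeq2, and the choline count 3 with DESeq2. With 1 ovary left out, list medians ran from -0.067 to 0.25 for LPA receptors and from 0.070 to 0.20 for nucleotide enzymes and transporters. They ran from -0.0090 to 0.29 for pyrophosphate and mineralisation, and from -0.14 to -0.062 for choline and lysophospholipid handling. For cGAMP and STING they ran from -0.075 to -0.00061. The cause of these shifts was not tested beyond the smaller number of ovaries. No paired analysis was possible because the labels give no litter, and their replicate numbers are not stated to mark pairs. A difference between litters was therefore not modelled. With 3 ovaries a genotype, small differences such as that of Enpp4 cannot be resolved from the spread.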

Other observations

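The genes closest in profile to the other members, by the same root mean square difference over the 6 ovaries, were Samd14 (0.022), Echdc2 (0.042) and C1qtnf7 (0.045) for Enpp1. For Enpp3 they were Gm5786 (0.12), Gm5160 (0.14) and Nkd2 (0.15). For Enpp4 they were 1110007C09Rik (0.020), Mettl17 (0.024) and Vrk3 (0.027), and for Enpp5 Gmppa (0.018), Srp9 (0.021) and Dcun1d1 (0.026). None of these 12 genes passed the threshold between the genotypes (edgeR).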
